A study of Mus musculus with 2 samples.

Results

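Auts2, Fbrsl1 and Fbrs form a small gene family, and its 103 peaks are described here as they lie along each gene. They come from a list of 99797 peaks of CUT&Tag, an assay in which an antibody tethers the transposase Tn5 to chromatin so that nearby DNA is cut and sequenced. The peaks were selected on the gene symbol that the authors assigned to each one: 96 to Auts2, 6 to Fbrsl1 and 1 to Fbrs. The family was chosen with these numbers in view, so they are a description and carry no test.

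Hippocampal tissue came from C57BL/6J mice whose genotype is labelled CamK-PARIS, with no treatment. There was 1 library made with an anti-FLAG antibody, meant to capture tagged PARIS (the zinc-finger repressor encoded by Zfp746), and 1 IgG library from the same genotype as the negative control. The labels do not say which promoter drives the transgene, how many animals were pooled or how old they were, and both libraries carry the transgene. With 1 library per antibody nothing could be tested against replicate error, peaks within a library are not replicates, and every interval below is a 95% interval for counting error over peaks. The sequencing depth is unknown. A peak list holds no expression values, so the tissue was not checked against marker genes.

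AUTS2 is a nuclear protein of developing and adult neurons, and disruption of its human gene is a known cause of a neurodevelopmental syndrome with intellectual disability and autistic features. It joins noncanonical Polycomb repressive complex 1 together with Pcgf3 or Pcgf5, where it has been tied to transcriptional activation through casein kinase 2 and the acetyltransferase Ep300. FBRSL1 and FBRS are its paralogs and occur in the same kind of complex. Auts2 also has an internal start, far from its 5′ end, that gives a shorter protein with the C-terminal part.

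The 3 genes differ widely in size on mm10. Auts2 (ENSMUSG00000029673, chromosome 5, 131437333 to 132543344, minus strand) spans 1106 kb and has 20 transcripts in GENCODE M21. Fbrsl1 (ENSMUSG00000043323, chromosome 5, 110361754 to 110448503, minus strand) spans 86.8 kb with 8 transcripts. Fbrs (ENSMUSG00000042423, chromosome 7, 127479199 to 127491711, plus strand) spans 12.5 kb with 9 transcripts. In what follows a peak is placed by the middle of its region of maximum signal, and the maximum signal is the highest coverage that the authors' peak caller recorded in the peak. A peak is of constant height when its total signal reaches 99% of its maximum signal times its width.

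All 3 genes had a peak in the gene body, which 60.2% of 21938 protein-coding genes had. All 3 also had a peak within 1 kb of an annotated transcription start site (TSS), against 45.6% of protein-coding genes. At the 5′ end of the gene itself, Auts2 and Fbrsl1 had a peak within 1 kb and Fbrs did not, and the share over protein-coding genes was 37.0%. The selection required an assigned peak, so nothing is read from these counts.

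The Auts2 start carried the highest peak of the family. It lies at chr5:132543136-132544180, is 1045 bp wide, covers the 5′ end of the gene and reached a maximum signal of 302, above 97.8% of all peaks. Its total signal of 134380 was also the highest in the family. A pair of further peaks had their maximum in exon 1 of the longest transcript, Auts2-207, which is not annotated as protein-coding. The one at chr5:132542581-132542861 reached 198 and covered the starts of 2 transcripts, neither protein-coding. The one at chr5:132540971-132542150 reached 118, extended into intron 1 and covered the starts of 3 transcripts. Of these only Auts2-212 is protein-coding. Together the 3 peaks overlapped 6 of the 7 starts annotated over the first 1521 bp of the gene. None was of constant height.

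The other peaks at a TSS of Auts2 flanked an internal start 1004657 bp downstream of the 5′ end. The protein-coding transcript Auts2-208 begins at this start, called the internal start below. Whether it is the one that gives the shorter protein was not checked. The peak at chr5:131538702-131539368 lay 15 bp upstream of this start, with a maximum signal of 141 and a total signal of 74921, the third highest among the peaks assigned to Auts2. The peak at chr5:131537317-131538276 lay downstream of it, covered the starts of the retained-intron transcripts Auts2-203 and Auts2-220 and reached 126. The 5 start peaks had a median maximum signal of 141, beside 116 for all 15272 peaks of the list within 1 kb of a TSS. None of the 5 had a constant height (0%, Wilson interval 0 to 43.4), while 44.5% of the start peaks of the whole list had one. The interval ends just below that share, but it treats the 5 peaks as independent. They are neighbours at the 5′ end and at the internal start, so no difference is read from it. Their median width was 960 bp, beside 483 bp for the start peaks of the list.

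The protein-coding transcript Auts2-209, whose start lies 926739 bp from the 5′ end, had no peak there: the nearest reached 73 and lay 8808 bp away. The starts of Auts2-216 and Auts2-205 were likewise 14654 and 3924 bp from the nearest peak. Those of Auts2-210 and Auts2-217 were 10732 and 1424 bp from it. Of the 7 protein-coding transcripts, only Auts2-208 and Auts2-212, which starts 1521 bp from the 5′ end, had a peak within 1 kb.

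The regions of maximum signal that these statements turn on are printed here on the strand of their gene, with each CG dinucleotide in capitals, so that start peaks can be set beside peaks deep in introns. The first is the region at the Auts2 5′ end (chr5:132543268-132543315), the second is the middle of the region just upstream of the internal start, which it does not contain (chr5:131538925-131539224), and the other 2 are the highest Auts2 peaks more than 1 kb from a TSS, in intron 1 (chr5:132268491-132268568) and intron 5 (chr5:131643483-131643534).
Auts2 5′ end: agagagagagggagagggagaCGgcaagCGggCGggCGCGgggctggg
Auts2 upstream of internal start: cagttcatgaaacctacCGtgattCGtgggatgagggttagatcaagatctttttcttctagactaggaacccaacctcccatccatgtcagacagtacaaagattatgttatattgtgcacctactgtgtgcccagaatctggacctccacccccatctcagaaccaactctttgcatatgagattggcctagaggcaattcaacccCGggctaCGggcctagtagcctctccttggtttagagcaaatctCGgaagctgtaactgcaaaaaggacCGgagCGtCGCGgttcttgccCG
Auts2 intron 1: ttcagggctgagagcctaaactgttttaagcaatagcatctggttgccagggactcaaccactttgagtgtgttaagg
Auts2 intron 5: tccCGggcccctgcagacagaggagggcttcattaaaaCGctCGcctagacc
The 48 bases at the 5′ end hold 5 CG dinucleotides and have a GC content of 75%. The 78 bases in intron 1 hold 0 and have a GC content of 46.2%. The 300 bases upstream of the internal start hold 10 and have a GC content of 49.3%. The 52 bases in intron 5 hold 3 and have a GC content of 61.5%, higher than the region upstream of the internal start.

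**Figure D1:**
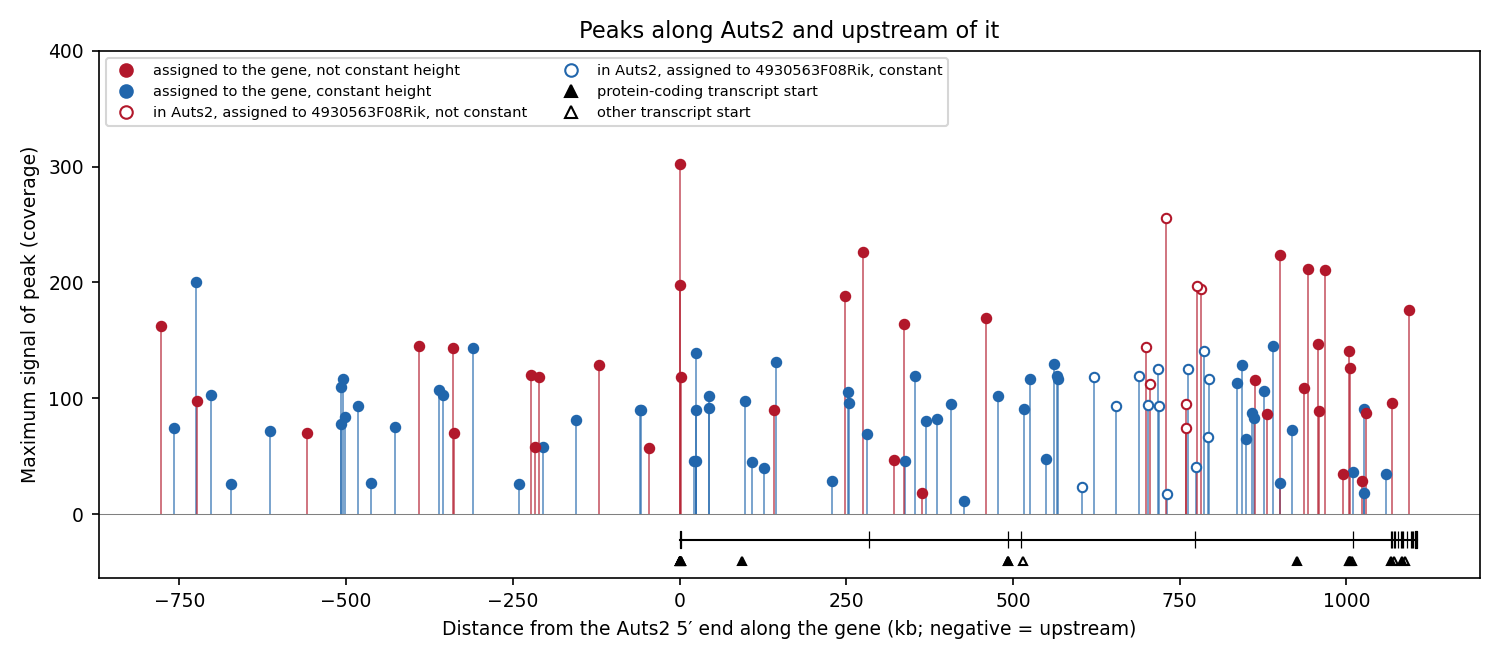
Maximum signal (coverage) of each peak against its distance from the Auts2 5′ end in kb, with the exons of the longest transcript and all annotated starts below the axis. Filled points are the 96 peaks assigned to Auts2, open points the 20 peaks inside the gene assigned to 4930563F08Rik, red points peaks that are not of constant height and blue points constant-height peaks. The highest point, at 302, stands at the 5′ end.

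Away from the starts, Auts2 carried many peaks of ordinary height. The 91 assigned peaks more than 1 kb from a TSS had a median maximum signal of 91.0, and ranged from 11 to 226. The same median over the 84429 such peaks of the list was 99. Of the 91, 60 were of constant height (65.9%, Wilson interval 55.7 to 74.8), close to 66.7% over the list. Over all 96 assigned peaks the median was 94.0 (order-statistic interval 87.0 to 106) against 101 over the list, and 43 (44.8%) exceeded the list median. By total signal, 8 of them (8.33%) were in the top 10% of the list.

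The highest of these peaks stood in introns 1 and 5 of the longest transcript. The one in intron 1 at chr5:132267772-132268784 reached 226. It lay 275 kb from the 5′ end and 180831 bp from the nearest annotated start of the gene. The one in intron 5 at chr5:131643473-131643876 reached 224. The peak with the largest total signal away from a start, 98860, was at chr5:131600195-131600842 in intron 5, with a maximum signal of 212. These 3 were above 93.9%, 93.7% and 92.5% of all peaks of the list by maximum signal.

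**Figure D2:**
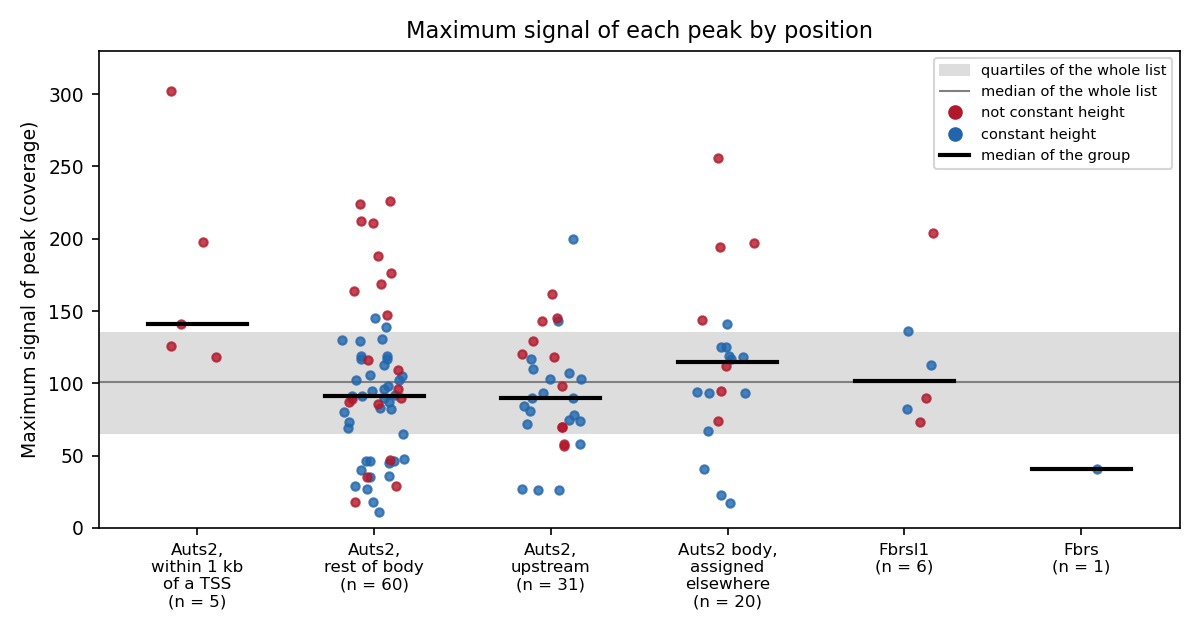
Maximum signal (coverage) of every peak, grouped by position; each point is 1 peak, black bars are group medians, and the grey band and line are the quartiles and median of the whole list. The 5 Auts2 start peaks all lie above the list median of 101, and the other groups spread on both sides of it, except the Fbrs peak at 41.

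Counted by position alone, 85 peaks lay inside Auts2, of which only 65 were assigned to it. The other 20 were all assigned to 4930563F08Rik, an antisense RNA gene within Auts2. They lay between 604 and 794 kb from the 5′ end, in introns 4 and 5, and had maximum signals from 17 to 256 with a median of 114. The highest of them, at chr5:131813159-131813686, exceeded every assigned Auts2 peak except the one at the 5′ end. By assigned peaks alone Auts2 had a gap of 268 kb, from 131707803 to 131975911. With the 20 peaks included, the longest gap inside the gene was 83.7 kb, in intron 1.

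This assignment changed where the peaks appeared to lie. Among the 65 assigned gene-body peaks, 34 were in the 5′ 50% of the gene (52.3%, Wilson interval 40.4 to 64.0). Among all 85 the same 34 made 40.0% (30.2 to 50.6). In steps of 25% of the gene from the 5′ end, the 85 peaks numbered 19, 15, 23 and 28, while the assigned ones numbered 19, 15, 3 and 28. The 25 assigned peaks that were not of constant height numbered 6, 4, 0 and 15 over the same steps. The 20 peaks assigned to 4930563F08Rik all lie in the third step, and 7 of them were not of constant height. The 0 therefore reflects the assignment, and by position 32 peaks inside the gene were not of constant height.

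**Figure D3:**
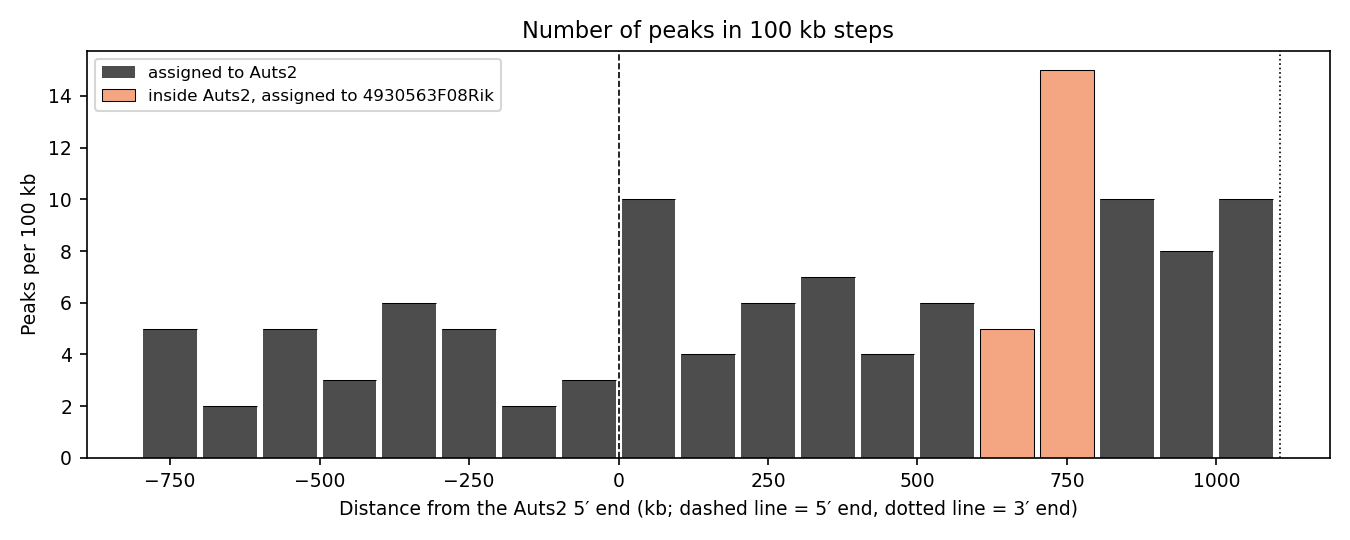
Number of peaks in each 100 kb step from the Auts2 5′ end, upstream at negative distances; dark bars are peaks assigned to Auts2 and light bars peaks inside it assigned to 4930563F08Rik. The highest bar, with 15 peaks between 700 and 800 kb, holds no peak assigned to Auts2.

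Of the introns of the longest transcript, intron 5 held the most peaks. There were 26 over its 237 kb, or 11.0 per 100 kb, and 13 of them, the pair at the internal start included, were not of constant height. Intron 4 (260 kb) held 20 peaks, or 7.69 per 100 kb, with 5 not of constant height. The introns nearest the 5′ end were sparser, with 17 peaks in the 282 kb of intron 1 (6.02 per 100 kb, 3 not of constant height) and 11 in the 209 kb of intron 2 (5.28 per 100 kb, 4 not of constant height). Intron 6 held 6 peaks in 56.8 kb, or 10.6 per 100 kb. The short introns 7 and 15 (1.38 and 5 kb) held 1 peak each, and the other 11 introns, 47.5 kb in all, held none. Exon 1 held the 3 start peaks, and no peak had its maximum in another exon of that transcript. The authors' table classed 12 Auts2 peaks as exonic, and by GENCODE M21 the exon named belonged to Auts2 in 1 of them. That peak, at chr5:132027035-132027105, lies in an exon of the retained-intron transcript Auts2-218 and had a constant height of 91. The other 11 lie in exons of 9 unconfirmed gene models (type TEC) placed within Auts2. No difference between introns was tested.

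Only the highest peak of each intron is compared here, and an intron with more peaks has more chances of a high one. No difference in height between introns was tested. The highest in intron 4 reached 256, the highest in introns 1 and 5 reached 226 and 224, and the highest in intron 2 reached 169. In intron 6, which lies just downstream of the internal start, the highest of the 6 peaks reached 91, below the list median of 101. The peak of intron 15, at 176, was the closest to the 3′ end, 1094 kb from the 5′ end. Neighbouring peaks inside the gene lay a median of 9122 bp apart, and 30 of the 84 gaps between them (35.7%) were at most 5 kb. Upstream of the gene, where peaks were sparser, the median gap was 19346 bp. Gaps were not computed for other genes or over the list, so no clustering is read from them.

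Constant-height peaks of Auts2 were lower and narrower than the others. The 60 constant-height peaks assigned to Auts2 had a median maximum signal of 90, a median width of 276 bp and a range from 11 to 200. The other 36 had a median of 119, a median width of 605 bp and a range from 18 to 302. All peaks above 200 were therefore among the 36. The same order held over the list more than 1 kb from a TSS, where the medians were 91 and 128.

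By the authors' classes, 46 Auts2 peaks were intronic (47.9%, Wilson interval 38.2 to 57.8), 31 distal intergenic (32.3%, 23.8 to 42.2), 12 exonic (12.5%, 7.30 to 20.6) and 7 in promoters (7.29%, 3.58 to 14.3). Over the list, 38.0% of peaks were intronic, 31.9% distal intergenic, 3.52% exonic and 24.6% in promoters. As described above, 11 of the 12 exonic peaks were classed by exons of gene models other than Auts2.

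Auts2 was also assigned a long run of upstream peaks, taken here up to the farthest one assigned to it. The length of this stretch therefore follows from the assignment. All 31 peaks over the 777 kb upstream of its 5′ end were given to it, and the nearest of these lay 45.4 kb from the 5′ end. They were classed distal intergenic and numbered 39.9 per Mb, beside 76.9 per Mb inside the gene and 46.6 per Mb over chromosome 5. Their maximum signals ranged from 26 to 200 with a median of 90, and 20 of the 31 were of constant height. The highest, at chr5:133268124-133268231, was a constant-height peak 725 kb upstream. The next peak farther upstream, 802 kb from the 5′ end, was assigned to Castor2.

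The density of peaks inside Auts2 was 1.65 times that of chromosome 5 (exact Poisson interval 1.32 to 2.04). Among the 230 protein-coding genes of at least 500 kb, this put Auts2 at rank 33. The median over these genes was 0.751, with quartiles of 0.512 and 1.17. The genes next above it were Kirrel3 (1.67), Syne1 (1.71) and Slit3 (1.72), and next below were Celf2 (1.64), Dscam (1.59) and Atp8a2 (1.59), each set against its own chromosome. These 6 were chosen as the nearest in this ratio, so that all lie within the counting interval of Auts2 follows from the choice. Counting only peaks assigned to Auts2, the ratio was 1.26.

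Base composition set the start peaks apart from the rest in part. Over 200 bp windows, GC content was 76.5%, 76.0% and 67.5% at 3 of the 5 start peaks, with observed over expected CpG of 1.26, 0.901 and 1.08. The other start peaks had GC contents of 56.0% and 48.0%, with CpG ratios of 0.537 and 0.183. The medians over all start peaks of the list were 57.0% and 0.469. The 91 Auts2 peaks away from a TSS had medians of 45.5% and 0.147, and none exceeded a GC content of 60.5%, while the list had 48.0% and 0.172.

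**Figure D4:**
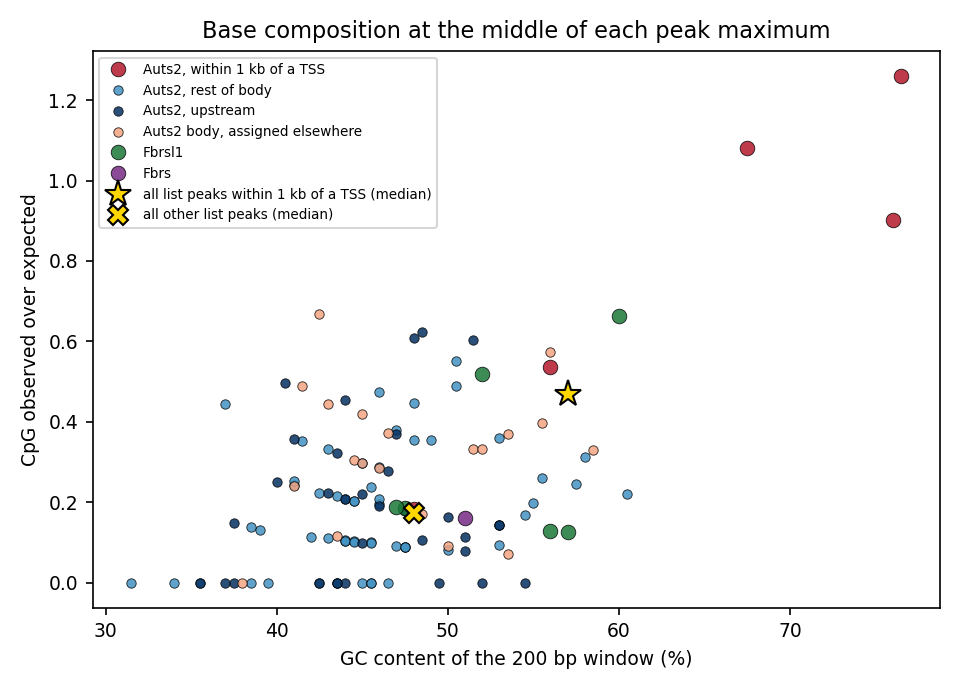
GC content (%) against observed over expected CpG in the 200 bp window around the middle of each maximum; each point is 1 peak and the yellow symbols are medians of the whole list. Only 3 start peaks of Auts2, at GC contents from 67.5% to 76.5%, have a CpG ratio above 0.9.

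The insulin response sequence reported for PARIS, TATTTTT or TATTTTG on either strand, occurred in 15 of the 96 Auts2 windows (15.6%, Wilson interval 9.70 to 24.2). In windows 1000 bp to either side of the same peaks it occurred in 16.7% (12.1 to 22.6), within the interval at the summits. Over the list it occurred in 9.97% of windows and in 13.6% of flanks. Of the 15, 8 lay inside the gene and 7 upstream. The motif occurred at 0 of the 5 start peaks and at 0 of the 20 peaks assigned to 4930563F08Rik (upper Wilson bound 16.1%). A match is a description of letters and does not show binding. Repeat-masked bases made up at least 50% of the window at 19 of the 96 Auts2 peaks (19.8%) and at 15.6% of the list. Of the 19, 9 were among the 65 assigned peaks inside the gene (13.8%) and 10 among the 31 upstream (32.3%). Among the 20 peaks assigned to 4930563F08Rik the number was 2. Over all peaks of the list more than 1 kb from a TSS the share was 17.6%. That set also holds intronic peaks, while all 31 upstream peaks were classed distal intergenic. No difference in repeat content was tested.

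Fbrsl1 also had a peak at its 5′ end and another near an internal start. The 5′ peak, at chr5:110448457-110449255, covered the starts of 3 transcripts and reached 204, above 91.7% of the list, with a total signal of 84037. Its maximum lay 410 bp upstream of the gene, inside the exon of the antisense RNA gene Gm42596, which overlaps the Fbrsl1 start on the other strand, and signal at the 2 genes cannot be told apart here. The internal peak, at chr5:110387196-110387539, lay 100 bp upstream of the start of Fbrsl1-201 and 234 bp upstream of that of Fbrsl1-206. It had a constant height of 82, and lies in an exon of Gm26711, a long noncoding RNA gene on the other strand. Their regions of maximum signal (chr5:110448878-110448949, and the middle of the other, chr5:110387218-110387517) both lie upstream of the start and do not contain it. They are printed on the gene's strand to set beside those of Auts2, with CG in capitals.
Fbrsl1 upstream of 5′ end: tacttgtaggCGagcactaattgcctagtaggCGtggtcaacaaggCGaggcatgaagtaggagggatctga
Fbrsl1 upstream of internal start: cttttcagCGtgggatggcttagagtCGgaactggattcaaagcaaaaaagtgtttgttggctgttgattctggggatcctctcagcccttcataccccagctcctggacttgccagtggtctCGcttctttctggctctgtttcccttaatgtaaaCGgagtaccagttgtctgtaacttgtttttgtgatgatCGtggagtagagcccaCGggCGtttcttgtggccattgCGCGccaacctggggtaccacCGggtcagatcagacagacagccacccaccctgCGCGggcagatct
They hold 3 CG dinucleotides in 72 bases and 12 in 300 bases, with GC contents of 51.4% and 53.0%.

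The other 4 Fbrsl1 peaks reached maximum signals from 73 to 136. Constant-height peaks of 104 and 93 bp in introns reached 113 (chr5:110417198-110417301) and 136 (chr5:110421804-110421896). A 95 bp peak at chr5:110436090-110436184 reached 73, and 97.5% of its window was repeat-masked. The last, at chr5:110452846-110453220, lay 4589 bp upstream of the gene and reached 90. The median over the 6 was 102, and 2 of the 6 lay within 1 kb of a TSS, against 15.3% of the list. By position 5 peaks lay inside the gene, a density 1.24 times that of the chromosome with a Poisson interval of 0.401 to 2.88, so a difference from the chromosome was not detectable with 5 peaks. Protein-coding genes within 1.5 times its length had a median of 4 peaks. The motif occurred in 0 of the 6 windows.

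**Figure D5:**
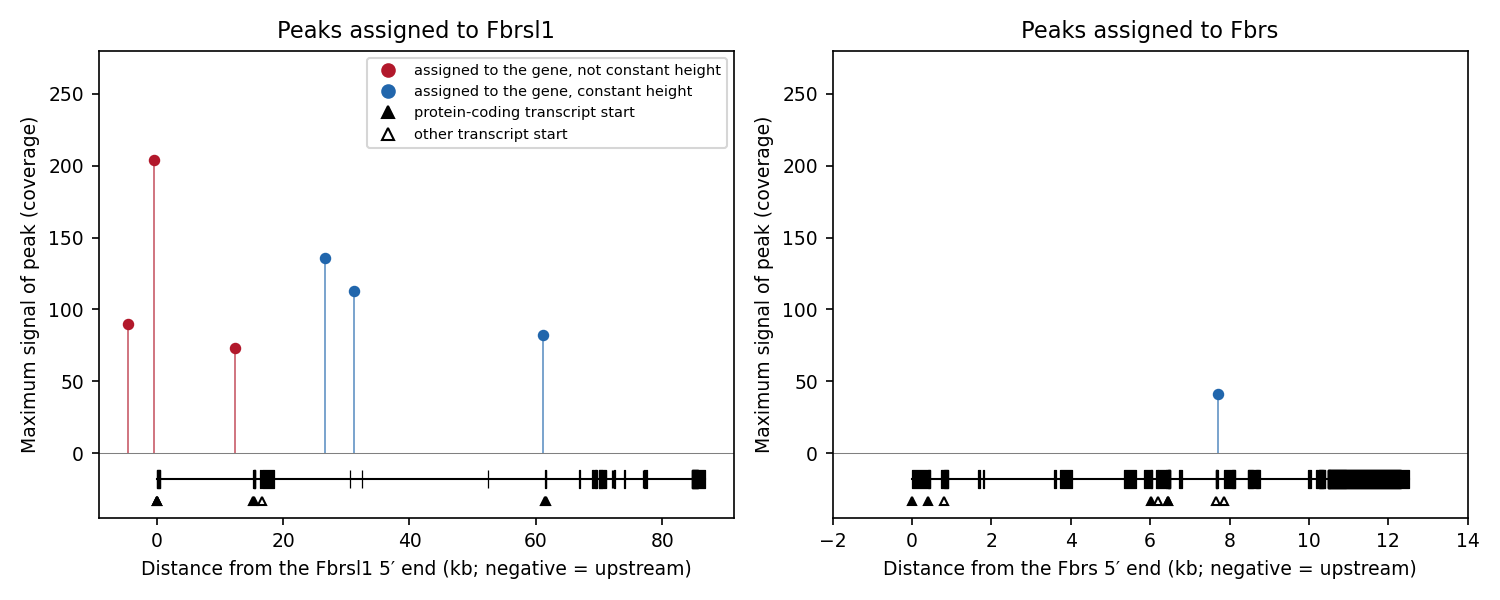
Maximum signal (coverage) of each assigned peak against its distance from the 5′ end in kb, for Fbrsl1 on the left and Fbrs on the right; red points are not of constant height, blue points are, and the exons of all transcripts and their starts are drawn below. Fbrsl1 has its highest peak, at 204, at the 5′ end, and Fbrs has 1 low peak at 41 inside the gene.

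Fbrs had 1 assigned peak, and it was weak. It lies at chr7:127486612-127487201, is 590 bp wide and had a constant height of 41, above 11.5% of all peaks. It stood 7.71 kb into the gene, at 61.6% of its length, and covered the starts of the non-coding transcripts Fbrs-203 and Fbrs-206 and a coding exon of 30 bp (127486860 to 127486889). The nearest protein-coding start was 965 bp from the edge of the peak. The middle of its region of maximum signal (chr7:127486758-127487057, plus strand, CG in capitals) is printed because it is the only peak of the gene.
Fbrs: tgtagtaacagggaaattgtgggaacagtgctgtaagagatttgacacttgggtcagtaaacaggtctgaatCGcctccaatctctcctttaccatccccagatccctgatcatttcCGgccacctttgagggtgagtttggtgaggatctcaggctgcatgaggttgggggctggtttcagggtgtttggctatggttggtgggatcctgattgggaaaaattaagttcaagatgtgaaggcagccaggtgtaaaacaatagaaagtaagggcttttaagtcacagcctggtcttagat
It holds 2 CG dinucleotides in 300 bases, at a GC content of 47.0%.

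No peak was within 1 kb of the 5′ end of Fbrs. The nearest ended 3719 bp upstream, reached 52 and was assigned to the upstream gene Prr14. The genes on both sides had high peaks at their starts: 595 at Prr14 (above 99.9% of the list) and 445 at Srcap (99.5%). The RefSeq promoter of Fbrs (chr7:127478708-127479007, GRCm38.p6) had a GC content of 62.0% and a CpG ratio of 0.660. Both Fbrsl1 promoters had 67.3% and 65.7%, with ratios of 0.780 and 0.841, and the medians over 32841 RefSeq promoters were 52.7% and 0.384. The motif was in none of these 3 promoters and in 11.3% of all. Auts2 was not in that table.

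Among 11 genes whose proteins share complexes with this family, 7 had a peak within 1 kb of an annotated TSS (63.6%), beside 45.6% of protein-coding genes. Csnk2b, the regulatory subunit of casein kinase 2, reached 276 and its catalytic subunits Csnk2a2 and Csnk2a1 reached 133 and 78. Rnf2, a ubiquitin ligase of Polycomb repressive complex 1, reached 243, and Dcaf7, an adaptor protein found with AUTS2, reached 219. The Polycomb group ring finger genes Pcgf5 and Pcgf3, whose products define the AUTS2 complexes, reached 116 and 101. The other 4 had none within 1 kb: the nearest peaks lay 1468 bp from a start of Ring1, 3533 bp from Ep300, 7339 bp from Rybp and 18826 bp from Yaf2. Rybp still had 26 assigned peaks, 1 of them inside the gene. No test was made on this list.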

How the data were processed

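CUT&Tag was measured in 1 anti-FLAG and 1 IgG library. Per the labels' protocols, the authors' reads were trimmed, mapped to mm10 by Bowtie2 and cleared of duplicates and poor alignments, and SEACR peaks were taken with the IgG library as control. Versions and SEACR settings are not given in the sources used here. The deposited list gives the authors' total and maximum signal per peak (coverage, scaling not stated), and the deposited annotation table gives an assigned gene and signed TSS distance for the region of maximum signal. Total signals in both files were equal for 100% of annotated peaks. Of all peaks, 96 had no symbol. No file of the IgG library was used.

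Python 3.11.15, pandas and scipy were used with GENCODE M21 and the RefSeq GRCm38.p6 genome, both of the mm10 build. Of the assigned transcripts, 99.2% were in GENCODE M21. Shares carry Wilson intervals, densities exact Poisson intervals and medians order-statistic intervals. Density was set against the chromosome without gaps. Counting functions were tested on simulated data. Members, gene lists and tests were chosen with earlier results of these data known. Peaks named are those within 1 kb of a TSS, the 3 highest by maximum and by total signal, and every peak of a gene with at most 10. The highest of the 20 peaks assigned elsewhere, the highest upstream peak, the peak in intron 15 and the exonic peak in Auts2-218 were named after their values were seen. Genes like Auts2 are the 3 above and 3 below it in density among protein-coding genes of at least 500 kb. The comparison with genes of similar length was added after the data were seen. Alternatives are given in the closing section.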

Additional observations from a re-analysis of the deposited data

How the results depend on the processing

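The 10 results were recomputed under 59 alternatives, and 35 stayed within the counting interval or within 1.5 times the count. The other 24 did not. By construction a stricter set holds fewer peaks, and beyond that the cause was not tested. The Auts2 density stayed between 1.53 and 1.67 under the 6 other peak sets and position rules. The 2 settings chosen after seeing the data were counting only assigned peaks, which gave an Auts2 density of 1.26, and counting every peak inside the gene, which gave 40.0% in the 5′ 50%.

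Without constant-height peaks, assigned peaks numbered 36 for Auts2, 3 for Fbrsl1 and 0 for Fbrs, and the Fbrs density was 0. In the same set the Auts2 median maximum signal was 119, and 40.0% of assigned gene-body peaks lay in the 5′ 50% of Auts2. That share leaves out 7 peaks inside Auts2 that were assigned to 4930563F08Rik. With maximum signal above the list median, the numbers were 43, 3 and 0, the Fbrs density was 0, the constant-height share of Auts2 was 48.8% and its median was 129. In the top 10% by total signal, they were 8, 1 and 0, the Fbrsl1 and Fbrs densities were 0, the share in the 5′ 50% was 66.7%, the constant-height share was 0% and the Auts2 median was 166. Among peaks at least 200 bp wide, Fbrsl1 had 3 peaks and a density of 0.338.

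No paired analysis was possible because each antibody has 1 library. For the same reason no replicate was left out. Fbrs rests on 1 peak and Fbrsl1 on 6, so their densities are known only within wide intervals, and depth is unknown.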
